A study of Homo sapiens with 18 samples.

Results

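The death receptor genes FAS and TNFRSF10B, the adaptor gene FADD, the inhibitor gene CFLAR and the initiator caspase genes CASP8, CASP10 and CASP9 were followed across drug treatments of MSTO-211H cells, a line established from a human malignant mesothelioma. A probe set belonged to this group if the platform annotation gave it exactly 1 gene symbol and that symbol was FAS, TNFRSF10A, TNFRSF10B, FADD, CFLAR, CASP8, CASP9 or CASP10. This rule found 27 of the 22283 probe sets of the HGU133A array: 11 for CFLAR, 4 each for FAS and CASP10, 3 for TNFRSF10B, 2 each for CASP8 and CASP9 and 1 for FADD. No probe set carried TNFRSF10A as its only symbol, so 7 of the 8 genes were measured, among 11963 genes with a probe set of their own.

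Death receptors are membrane proteins that start apoptosis when their ligands bind. FAS (bound by FAS ligand) and TNFRSF10B (the TRAIL receptor DR5) recruit the adaptor FADD, and FADD gathers the initiator caspases encoded by CASP8 and CASP10, which then activate each other and the executioner caspases. CFLAR (c-FLIP) resembles CASP8 and enters the same complex, where it holds back the activation. CASP9 encodes the initiator of the mitochondrial route, which is activated on the apoptosome. FAS and TNFRSF10B are both known as genes that p53 activates after DNA damage, and cisplatin damages DNA.

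The cells were treated with piroxicam and cisplatin together (P/C), with cisplatin alone (C), with piroxicam alone (P), or left untreated, for 24 or 8 h. Piroxicam, a non-steroidal anti-inflammatory drug, was given at 760 µM, and cisplatin, a platinum drug, at 4.5 µg/mL. At 24 h there were 2 P/C, 3 C, 3 P and 2 untreated arrays, and at 8 h 2 arrays in each group, 18 in all. All values below are GCRMA signals on the log2 scale, in which 1 unit is a change of 2-fold.

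Across the 18 arrays the median probe set lay at 2.72 to 2.83, between 15.0% and 16.8% of the probe sets reached a signal of 100 (6.64 on the log2 scale), and arrays of the same group correlated at r = 0.981 to 0.993. Of 12 mesothelial or mesothelioma markers, KRT8, KRT18 and VIM reached a signal of 100 on all 18 arrays, whereas MSLN, a defining marker of mesothelial cells, stayed between 1.99 and 2.57 and the other 8 markers did not reach it on any array. None of 4 leukocyte, 3 endothelial and 1 erythroid markers reached it, and of 3 fibroblast markers COL3A1 did so on 4 arrays. The array labelled C 24 h replicate 1 stood apart from its group. The median of 5 other p53 target genes lay 0.23 above the untreated 24 h mean on it, against 1.78 and 2.10 on C 24 h replicates 2 and 3, 1.90 and 2.13 on the P/C arrays, 1.10 to 1.35 on the P arrays and -0.19 and 0.19 on the untreated arrays. Results that rest on C 24 h replicate 1 are therefore given with and without it. FAS and TNFRSF10B are p53 targets themselves and were low on the same array, so the values without it only describe how far a result rests on it.

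FAS, TNFRSF10B, CFLAR and CASP8 reached a signal of 100 on at least 1 array, and FADD, CASP10 and CASP9 on none. Signals of different probe sets cannot be set against each other. The filter for dim or constant probe sets asked for an IQR of 0.25 or more and for a signal of 100 or more in 25% of the arrays, and it was passed by 4 of the 27 probe sets, namely 1 of TNFRSF10B, 2 of CFLAR and 1 of CASP8. The other 23 were below the signal limit on most arrays, and their changes were taken from a second fit to all 22215 probe sets other than controls. A call needed both an adjusted p of 0.05 or less (limma, Benjamini-Hochberg) and a log2 fold change of 1 or more in either direction.

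**Figure D1:**
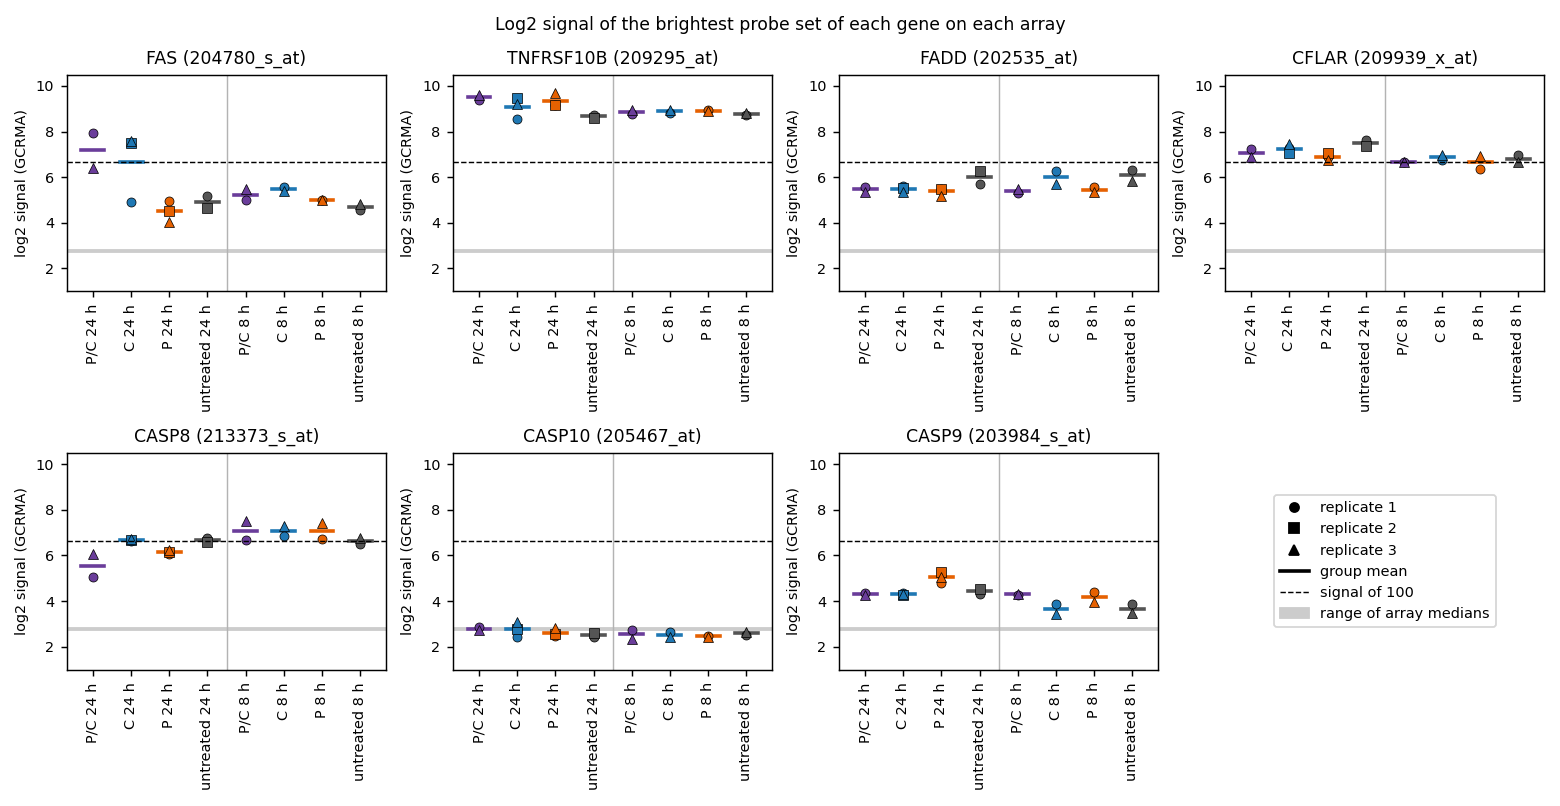
Log2 GCRMA signal (vertical axis) of the brightest probe set of each gene on every array, by treatment and time (horizontal axis), with 1 symbol shape for each replicate number and a bar at the group mean. The dashed line marks a signal of 100 and the grey band the array medians of 2.72 to 2.83. FAS separates the 24 h groups most widely, and CASP10 stays within or close to the grey band.

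RefSeq promoter windows, from 250 bases before to 50 bases after an annotated transcript start in GRCh38.p14, are shown for the genes in which such a window holds a p53 half-site, because FAS is a known p53 target. There were 13 windows searched, for FAS, FADD, CFLAR, CASP8 and CASP9. TNFRSF10B and CASP10 were not searched here. A match to the p53 half-site, searched on both strands, occurred in 3 of the 13 windows and in 6.63% of the 35116 windows of all genes, and GGGCGG, the core of a GC box, searched on both strands, occurred in 9 of the 13 and in 45% of all windows. The 2 motifs did not overlap in the 3 windows below, in which the half-site is in capitals. A match describes the letters only and is not a binding site.
FAS, chr10:88991181-88991480, plus strand: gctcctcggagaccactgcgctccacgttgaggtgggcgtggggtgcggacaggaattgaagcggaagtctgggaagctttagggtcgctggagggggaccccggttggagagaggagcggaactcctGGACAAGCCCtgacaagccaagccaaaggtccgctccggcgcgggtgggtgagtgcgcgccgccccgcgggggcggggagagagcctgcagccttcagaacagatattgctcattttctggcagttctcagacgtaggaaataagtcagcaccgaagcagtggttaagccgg
CASP8, chr2:201257785-201258084, plus strand: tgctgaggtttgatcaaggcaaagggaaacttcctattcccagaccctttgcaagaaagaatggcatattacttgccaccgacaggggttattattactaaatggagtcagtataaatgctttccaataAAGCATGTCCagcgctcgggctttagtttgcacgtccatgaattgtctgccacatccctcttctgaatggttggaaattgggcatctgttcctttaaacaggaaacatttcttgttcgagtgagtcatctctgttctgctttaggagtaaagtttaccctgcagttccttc
CASP9, chr1:15524741-15525040, minus strand: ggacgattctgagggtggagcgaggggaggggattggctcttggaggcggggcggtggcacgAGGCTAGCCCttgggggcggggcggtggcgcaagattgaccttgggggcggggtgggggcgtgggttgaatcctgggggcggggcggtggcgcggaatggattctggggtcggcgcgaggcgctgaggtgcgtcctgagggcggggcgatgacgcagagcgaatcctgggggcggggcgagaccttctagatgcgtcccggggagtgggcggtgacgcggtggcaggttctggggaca
The FAS window lies inside the gene, which spans bases 88964050 to 89017059 of chromosome 10, and its match is at positions 129 to 138 from the 5′ end of the window. The CASP8 window also lies inside its gene (chromosome 2, bases 201233463 to 201287711), with the match at positions 130 to 139. The CASP9 window crosses the 5′ end of the gene (chromosome 1, bases 15491401 to 15524912, minus strand), with the match at positions 63 to 72. CFLAR, CASP10 and CASP8 are neighbours on chromosome 2, CFLAR starting at base 201116164 and CASP10 at base 201183141.

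Against untreated cells at 24 h, CASP8 was called lower in P/C cells in the filtered fit, on the brighter of its 2 probe sets. TNFRSF10B was called higher in P/C cells on the dimmer 2 of its 3 probe sets, in the fit of all probe sets. CASP8 was not called in that fit. FAS was higher than in untreated cells in most of the arrays with cisplatin, with no call unless the variance model was changed or C 24 h replicate 1 was left out. Among the 4 probe sets that passed the filter, limma called 1 for P/C (with 2 at an unadjusted p under 0.05), 0 for C (with 0) and 0 for P (with 2), where 4.22% of the tested probe sets were called lower for P/C, 0% were called for C and 14.6% for P. Of the 3057 tested probe sets, 901, 421 and 1258 had an unadjusted p under 0.05 by limma for P/C, C and P. In the fit of all probe sets limma called 2 of the 27 for P/C (with 9 at an unadjusted p under 0.05), 0 for C (with 6) and 0 for P (with 6), where 0.482% of all probe sets were called higher for P/C, 0.0045% were called for C and 3.52% for P. Over all 22215 probe sets, 3255, 1830 and 4057 had an unadjusted p under 0.05 by limma for P/C, C and P. The median log2 fold change of the 27 was 0.24 for P/C, 0.15 for C and 0.05 for P, against 0.00079, 0.01 and 0.03 over all probe sets. limma called none of the 27 for P/C against P cells (with 11 at an unadjusted p under 0.05) or for P/C against C cells (with 4), in which 0.164% and 0.0981% of the tested probe sets and 0% of all probe sets were called. An unadjusted p under 0.05 by limma was reached by 2844 and 1970 of the 22215 probe sets in these 2 comparisons.

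FAS, the receptor for FAS ligand, had the widest range among the brightest probe sets of the genes. On probe set 204780_s_at the 24 h signals were 7.95 and 6.42 in P/C cells, 4.90, 7.52 and 7.57 in C cells, 4.97, 4.52 and 4.05 in P cells and 5.18 and 4.65 in untreated cells. Both P/C arrays and 2 of the 3 C arrays were above every P and untreated array, whereas C 24 h replicate 1 lay between the 2 untreated arrays. The group means were 7.18 ± 1.08 in P/C cells (SD, n = 2), 6.66 ± 1.53 in C cells (n = 3), 4.51 ± 0.46 in P cells (n = 3) and 4.92 ± 0.38 in untreated cells (n = 2). The C group thus had the largest spread of the 4.

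The other FAS probe sets showed the same arrays high, except for P/C 24 h replicate 3 on 204781_s_at. On 215719_x_at the signals were 7.20 and 5.75 in P/C cells, 3.32, 6.09 and 7.10 in C cells, 3.41, 3.33 and 2.82 in P cells and 3.74 and 3.09 in untreated cells. The 4 probe sets correlated with each other at r = 0.87 to 0.98 over the 18 arrays, a description that rests on shared RNA samples and partly on shared sequence. On 204781_s_at the P/C arrays, at 4.84 and 3.59, overlapped with the untreated arrays, at 3.62 and 3.37, while C 24 h replicates 2 and 3 reached 5.23 and 5.86.

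With all 18 arrays and 1 prior variance for all probe sets, no FAS probe set was called in any comparison with untreated cells. When the prior variance was allowed to follow the intensity, 215719_x_at (log2 fold change 3.06) was called higher in P/C cells, as 1 of 3 of the 27, against 0.545% of all probe sets called higher. On 204780_s_at the log2 fold change was 2.26 in P/C cells (SE 0.71, adjusted p = 0.133), 1.74 in C cells (SE 0.65, adjusted p = 0.502) and -0.40 in P cells (SE 0.65, adjusted p = 0.833). Over both cisplatin groups against both groups without it at 24 h (the cisplatin main effect), FAS differed by 2.21 on 204780_s_at and 2.69 on 215719_x_at, with an adjusted p of 0.0629 for each. limma called none of the 27 probe sets for this effect, with 9 at an unadjusted p under 0.05, and 0% of all probe sets. Of all 22215 probe sets, 2720 had an unadjusted p under 0.05 by limma for this effect. In the filtered fit, which FAS did not enter, 1.01% were called.

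Without the array labelled C 24 h replicate 1, all 4 FAS probe sets were higher in C cells than in untreated cells at 24 h and passed both limits. The log2 fold changes were 2.63 on 204780_s_at (SE 0.40, adjusted p = 0.00621), 3.18 on 215719_x_at (adjusted p = 0.00252), 2.75 on 216252_x_at (adjusted p = 0.0429) and 2.05 on 204781_s_at (adjusted p = 0.00773). TNFRSF10B 209294_x_at was the fifth of the 27 to be called higher, against 0.473% of all probe sets called higher in the same fit. The cisplatin main effect without this array called 6 of the 27 higher, against 0.599% of all probe sets, with FAS 204780_s_at at 2.65 (SE 0.27, adjusted p = 0.000198). With all 18 arrays, FAS 204780_s_at passed both limits for this effect when the prior variance was allowed to follow the intensity (adjusted p = 0.024), where 3 of the 27 and 0.216% of all probe sets were called higher. The effect on 204780_s_at also depended on the P/C array kept. It was 1.82 without P/C 24 h replicate 1 (signal 7.95), in place of 2.21, and was larger without replicate 3 (signal 6.42). Each of these fits leaves 1 P/C array, so no call is given.

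P/C was also set against each single drug. On 204780_s_at the log2 fold change of P/C over C was 0.52 with all arrays (95% interval -0.87 to 1.91), and the intervals of all 4 FAS probe sets included 0. Without C 24 h replicate 1 it turned to -0.36 (adjusted p = 0.826), and it lay between -1.33 (204781_s_at, adjusted p = 0.353) and -0.12 (215719_x_at, adjusted p = 0.956) on the other 3, with no call. The direction on 204780_s_at thus rested on that array. The log2 fold change of P/C over P was 2.67 on 204780_s_at with all arrays (adjusted p = 0.0964). It was 1.91 without P/C 24 h replicate 1 (adjusted p = 0.647) and 3.43 without P/C 24 h replicate 3 (adjusted p = 0.0299), where 1.84% of all probe sets were called higher. With either left out the P/C group is 1 array, assumed to vary like the other groups.

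TNFRSF10B, the TRAIL receptor DR5, was the only receptor above a signal of 100 on all 18 arrays. On 209295_at the 24 h signals were 9.39 and 9.61 in P/C cells, 8.55, 9.48 and 9.23 in C cells, 9.14, 9.15 and 9.68 in P cells and 8.73 and 8.61 in untreated cells. All P/C and P arrays were above both untreated arrays, and in C cells replicate 1 was below both. The log2 fold change was 0.83 in P/C cells (SE 0.27, adjusted p = 0.0585), 0.42 in C cells (SE 0.25, adjusted p = 0.438) and 0.65 in P cells (SE 0.25, adjusted p = 0.0587). Without C 24 h replicate 1 it was 0.68 in C cells (adjusted p = 0.0849). The piroxicam main effect on it was 0.53 (SE 0.18, adjusted p = 0.0328), which is under the fold limit, and 0.40 without C 24 h replicate 1 (adjusted p = 0.0575).

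The dimmer TNFRSF10B probe sets gave larger differences. On 209294_x_at the signals were 6.53 and 6.71 in P/C cells, 4.74, 5.61 and 6.12 in C cells, 5.75, 4.68 and 5.20 in P cells and 4.80 and 4.12 in untreated cells. The P/C arrays were above all other 24 h arrays, and the C and P arrays each overlapped with the untreated ones. P/C cells were 4.46-fold higher than untreated cells on this probe set (log2 fold change 2.16, SE 0.40, adjusted p = 0.0304) and 3.87-fold higher on 210405_x_at (log2 fold change 1.95, SE 0.43, adjusted p = 0.0441), so 2 of the 27 probe sets rose, against 0.482% of all probe sets. Against C cells the P/C difference was 1.13 on 209294_x_at (95% interval 0.34 to 1.91, adjusted p = 0.359) and against P cells 1.41 (0.62 to 2.19, adjusted p = 0.115). Without C 24 h replicate 1 the difference from C cells was 0.75 (adjusted p = 0.506).

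These TNFRSF10B calls depended on single arrays. For 209294_x_at the adjusted p became 0.263 when untreated replicate 2 was left out and 0.106 when P/C replicate 3 was. For 210405_x_at it became 0.0753 or 0.353 when untreated replicate 1 or 2 was left out and 0.0704 or 0.151 when P/C replicate 1 or 3 was, while the log2 fold change stayed between 1.68 and 2.23. The _x_at ending of both probe sets marks probes that can also match other transcripts, and their r with each other was 0.93, against 0.74 and 0.77 with 209295_at.

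**Figure D2:**
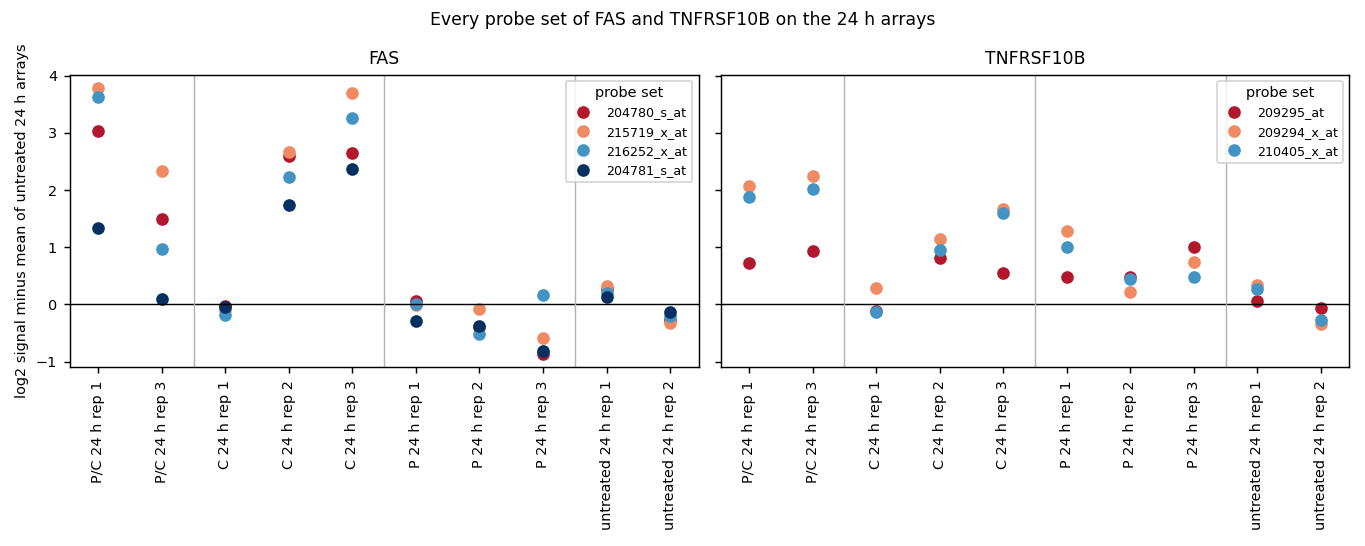
Log2 signal of every FAS (left) and TNFRSF10B (right) probe set on each 24 h array, minus the mean of the 2 untreated 24 h arrays of the same probe set (vertical axis), with the arrays along the horizontal axis. On C 24 h replicate 1 all 7 probe sets lie near 0, on C 24 h replicates 2 and 3 all lie above it, and the P arrays lie near or below 0 for FAS and above it for TNFRSF10B.

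FADD, the adaptor between receptor and caspase, was measured by 1 probe set, 202535_at, which stayed below a signal of 100. Its 24 h signals were 5.56 and 5.36 in P/C cells, 5.60, 5.55 and 5.36 in C cells, 5.47, 5.48 and 5.18 in P cells and 5.69 and 6.28 in untreated cells. Every treated array was below both untreated arrays, whose own spread (SD 0.42, n = 2) was close to the difference. The log2 fold change was -0.53 in P/C cells (SE 0.23, adjusted p = 0.311), -0.49 in C cells (SE 0.21, adjusted p = 0.574) and -0.61 in P cells (SE 0.21, adjusted p = 0.124), none past the limits.

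CFLAR, the inhibitor of CASP8 activation, reached a signal of 100 on 17 arrays with 209939_x_at and on 12 with 210563_x_at. On 209939_x_at the 24 h signals were 7.23 and 6.89 in P/C cells, 7.27, 7.05 and 7.44 in C cells, 6.89, 7.05 and 6.73 in P cells and 7.62 and 7.37 in untreated cells. The P/C and P arrays were below both untreated arrays, and the C arrays overlapped with them. The log2 fold change was -0.44 in P/C cells (SE 0.24, adjusted p = 0.238), -0.25 in C cells (SE 0.22, adjusted p = 0.61) and -0.61 in P cells (SE 0.22, adjusted p = 0.0504).

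The second probe set differed in direction for cisplatin. On 210563_x_at the signals were 7.59 and 6.54 in P/C cells, 7.47, 7.49 and 7.60 in C cells, 6.96, 6.88 and 6.67 in P cells and 7.33 and 7.03 in untreated cells, so that all C arrays were above and all P arrays below the untreated ones. The log2 fold change was 0.34 in C cells (SE 0.29, adjusted p = 0.594) and -0.34 in P cells (SE 0.29, adjusted p = 0.397). None of the 11 CFLAR probe sets was called against untreated cells at 24 h, their signs were mixed in each comparison, and 217654_at and 214618_at were below the array median on all 18 arrays. Isoforms were not separated, since the annotation names only the gene.

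CASP8, the initiator caspase of the receptor route, was the only probe set of the 4 that passed the filter to be called against untreated cells. On 213373_s_at the 24 h signals were 5.04 and 6.06 in P/C cells, 6.62, 6.70 and 6.70 in C cells, 6.05, 6.17 and 6.25 in P cells and 6.77 and 6.60 in untreated cells. The P arrays lay below the C and untreated arrays without overlap, and the 2 P/C arrays had a SD of 0.72. CASP8 fell in P/C cells (log2 fold change -1.13, SE 0.33, adjusted p = 0.041), a difference of 2.2-fold. It was 1 of 4 tested, against 4.22% of the 3057 probe sets called lower. In these whole-culture RNA samples fewer cells with the transcript and less of it in each cell cannot be told apart.

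The call rested on few arrays. Leaving out an untreated array at 24 h gave an adjusted p of 0.126 (replicate 1) or 0.203 (replicate 2), and leaving out P/C replicate 1 gave 0.238, with the log2 fold change at -0.63. In P cells the change was -0.53 (SE 0.30, adjusted p = 0.201) and in C cells -0.01 (SE 0.30, adjusted p = 0.993). Over both piroxicam groups the difference from the groups without piroxicam was -0.83 (SE 0.21, adjusted p = 0.0105), under the fold limit, so no probe set of the 4 was called for this main effect, with 3 at an unadjusted p under 0.05 by limma and 6.18% of the tested probe sets called (1.69% in the fit of all probe sets, with 0 of the 27). Of the 3057 tested probe sets, 1274 had an unadjusted p under 0.05 by limma for this main effect. P/C differed from C by -1.13 (95% interval -1.77 to -0.49, adjusted p = 0.141), or by -1.15 without C 24 h replicate 1 (adjusted p = 0.238), and from P by -0.61 (adjusted p = 0.28). The difference from P rested on which P/C array was kept, being -0.10 without replicate 1 (adjusted p = 0.965) and -1.12 without replicate 3 (adjusted p = 0.0363), with 1 P/C array left in each fit. The piroxicam main effect was -0.57 without replicate 1 (adjusted p = 0.0471) and -1.08 without replicate 3 (adjusted p = 0.00498).

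The dim CASP8 probe set 207686_s_at did not follow the bright one. Its 24 h signals were 3.91 and 3.39 in P/C cells, 3.47, 3.37 and 3.83 in C cells, 3.25, 2.83 and 2.80 in P cells and 3.57 and 3.25 in untreated cells, and the log2 fold change in P/C cells was 0.24 (SE 0.26, adjusted p = 0.796). The r between both probe sets over the 18 arrays was -0.08.

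CASP10, the second initiator caspase that binds FADD, was at background. Its brightest probe set, 205467_at, lay between 2.35 and 3.09 and was below the array median on 16 of 18 arrays. On it the signals were 2.85 and 2.74 in P/C cells, 2.42, 2.77 and 3.09 in C cells, 2.45, 2.54 and 2.82 in P cells and 2.44 and 2.61 in untreated cells. A fall could not be seen at such levels, and no CASP10 probe set was called at either time.

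CASP9, the initiator caspase of the mitochondrial route, had its highest 24 h signals in P cells. On 203984_s_at the 24 h signals were 4.34 and 4.27 in P/C cells, 4.36, 4.25 and 4.33 in C cells, 4.80, 5.27 and 5.04 in P cells and 4.32 and 4.53 in untreated cells. All 3 P arrays were above the other 7 arrays of that time. The log2 fold change in P cells was 0.61 (SE 0.18, adjusted p = 0.0701), and P/C cells differed from P cells by -0.73 (SE 0.18, adjusted p = 0.107), neither past the limits. In P/C cells the difference from untreated cells was -0.12 (SE 0.20, adjusted p = 0.892).

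**Figure D3:**
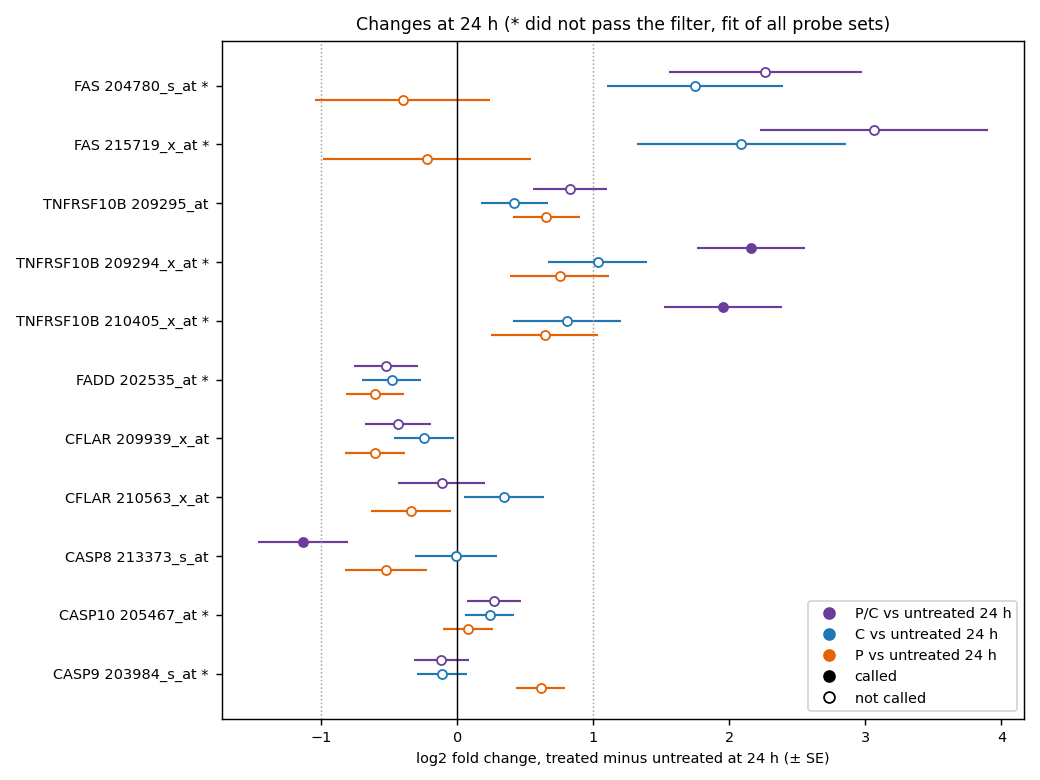
Log2 fold change of each treatment over untreated cells at 24 h (horizontal axis, bars are ± SE from limma) for 11 probe sets (vertical axis), with filled symbols for called changes and an asterisk for probe sets that did not pass the filter. The called changes are CASP8 213373_s_at at -1.13 and TNFRSF10B 209294_x_at and 210405_x_at at 2.16 and 1.95, all in P/C cells. Dotted lines mark the fold limit.

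At 8 h none of the 27 probe sets was called by limma in any comparison of a treatment with untreated cells, where 0.622% of the tested probe sets were called for P/C, 0% for C and 0.491% for P, and 0.09%, 0% and 0.0495% of all probe sets. In the fit of all probe sets 2 of the 27 had an unadjusted p under 0.05 by limma for P/C, 0 for C and 2 for P. Over all 22215 probe sets, 1469, 435 and 1341 did. FAS 204780_s_at had signals of 4.99 and 5.49 in P/C cells, 5.58 and 5.38 in C cells, 4.99 and 5.01 in P cells and 4.55 and 4.84 in untreated cells. All treated arrays were above both untreated ones. TNFRSF10B 209295_at stayed between 8.72 and 8.96 on all 8 arrays of this time.

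FADD and CASP9 had the smallest p values at 8 h for P/C and for P, in opposite directions. FADD signals were 5.32 and 5.47 in P/C cells, 6.28 and 5.69 in C cells, 5.57 and 5.33 in P cells and 6.34 and 5.83 in untreated cells, so that the 4 arrays with piroxicam were below the 4 without it. CASP9 203984_s_at signals were 4.28 and 4.33 in P/C cells, 3.89 and 3.43 in C cells, 4.41 and 3.96 in P cells and 3.86 and 3.46 in untreated cells, again without overlap. The piroxicam main effect at 8 h was -0.61 for FADD (SE 0.17, adjusted p = 0.103) and 0.58 for CASP9 (SE 0.14, adjusted p = 0.0697), neither past the limits, where 0.572% of all probe sets were called. CASP8 213373_s_at, at 6.67 and 7.50 in P/C cells, 6.84 and 7.31 in C cells, 6.73 and 7.41 in P cells and 6.51 and 6.79 in untreated cells, was higher in replicate 3 than in replicate 1 of every group.

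**Figure D4:**
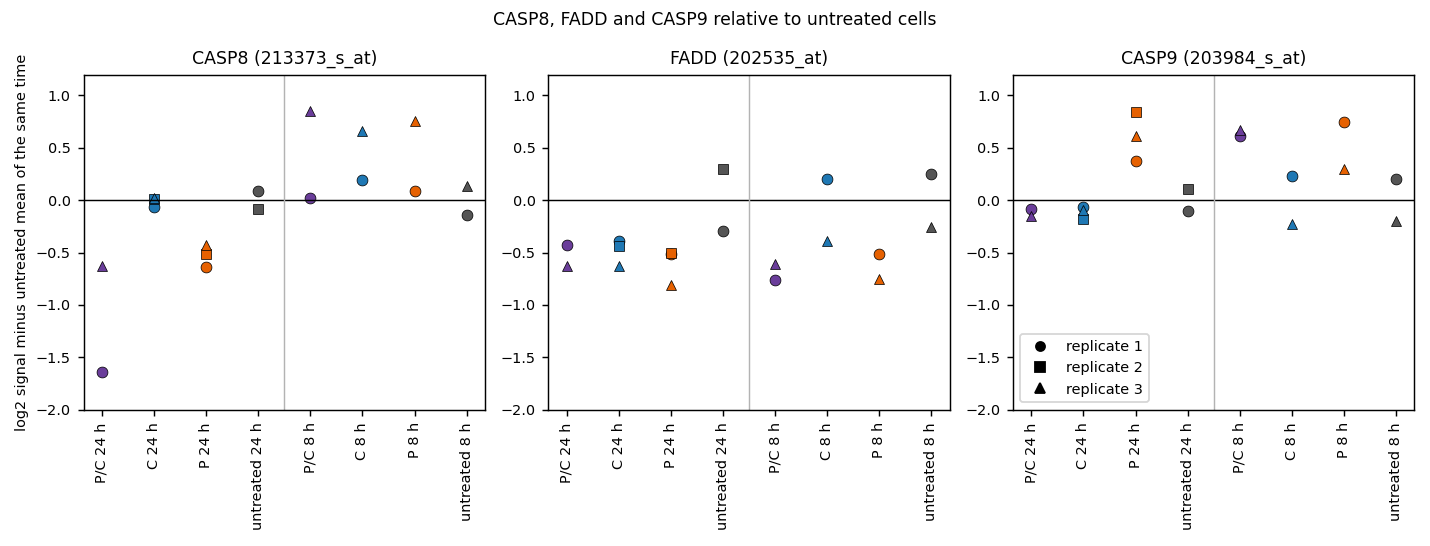
Log2 signal of CASP8, FADD and CASP9 on each array minus the mean of the 2 untreated arrays of the same time (vertical axis), by treatment and time (horizontal axis), with symbol shapes for replicate numbers. CASP8 lies below 0 on the P/C and P arrays at 24 h and at or above 0 on the treated arrays at 8 h, and FADD lies below 0 on all treated arrays at 24 h.

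Between the times, CASP8 213373_s_at in P/C cells was lower at 24 h than at 8 h (log2 fold change -1.54, SE 0.33, adjusted p = 0.0189), where 1.73% of the tested probe sets were called lower. The call was lost without P/C 8 h replicate 3 (-1.12, adjusted p = 0.151) and without P/C 24 h replicate 1 (-1.03, adjusted p = 0.0959). TNFRSF10B 209294_x_at in P/C cells was higher at 24 h than at 8 h by 2.06 (SE 0.40, adjusted p = 0.0405), where 0.293% of all probe sets were called higher. That call was lost without any 1 of the 4 arrays, with an adjusted p of 0.107 and 0.16 without P/C 8 h replicates 1 and 3, and of 0.0636 and 0.107 without P/C 24 h replicates 1 and 3. CASP9 in P cells was higher at 24 h by 0.85 (SE 0.18, adjusted p = 0.0291), under the fold limit. Its mean in untreated cells was also higher at 24 h than at 8 h, at 4.43 against 3.66 (SE of the difference 0.20, adjusted p = 0.796).

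No gene passed the test for a treatment effect that differed between 24 and 8 h, or for a P/C effect other than the sum of both single effects. The difference of the P/C effects, 24 h minus 8 h, was -1.57 for CASP8 213373_s_at (SE 0.47, adjusted p = 0.318) and 2.30 for TNFRSF10B 209294_x_at (SE 0.56, adjusted p = 0.472).

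Of 37 other genes of the pathway, 30 had a probe set and 6 passed the filter: the adaptors and regulators BIRC2, DIABLO and PEA15, the mitochondrial genes CYCS and BID, and DFFA. No ligand, decoy receptor, other death receptor or other caspase passed it. DFFA, which encodes the inhibitor of the caspase-activated DNase and is itself cut by executioner caspases, was the only one of the 6 called against untreated cells. Its mean was 7.33 in P/C cells, 7.48 in P cells and 5.99 in untreated cells at 24 h, and the log2 fold change was 1.35 in P/C cells (SE 0.37, adjusted p = 0.0337) and 1.49 in P cells (SE 0.34, adjusted p = 0.00494), where 2.65% and 3.14% of the tested probe sets were called higher. The P/C call was lost without untreated 24 h replicate 1 (adjusted p = 0.0551), untreated replicate 2 (adjusted p = 0.253) or P/C replicate 3 (0.82, adjusted p = 0.228), and the P call without untreated replicate 2 (adjusted p = 0.072).

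Over the 18 arrays and 2746 probe sets compared, the patterns most like TNFRSF10B 209295_at were those of PTP4A1, NSUN5 and STAT3 (Pearson r of 0.91, 0.87 and 0.85). Those most like CFLAR 209939_x_at were PRR13, BCHE and CAV1 (0.84, 0.76 and 0.74), and those most like CASP8 213373_s_at were C1D, EIF1AX and DUT (0.90, 0.88 and 0.87). These correlations describe samples that share treatments and times.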

How the data were processed

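MSTO-211H RNA was hybridised to 18 HGU133A arrays, grouped by the submitters' labels. Per the methods, the authors took out 6 arrays whose raw intensities were outliers. The deposited values are log2 signals after GCRMA (background correction and normalization between arrays), whose version the sources used here do not state. With arrays, their number limits the precision. The paper describes the replicates as biological.

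The limits of the paper's filter, applied to the deposited values of the 18 arrays without 68 control probe sets, left 3057 probe sets, which is fewer than the methods state; the cause was not tested. A linear model of 8 group means with no covariate was fitted in limma 3.58.1 (R 4.3.3; 10 residual and 5.76 prior degrees of freedom), and a second fit took all 22215 probe sets. Tests were two-sided, with Benjamini-Hochberg adjustment over all probe sets of a fit. A main effect is the mean of both groups with a drug minus the mean of both groups without it. The platform annotation gave 19071 probe sets 1 symbol, 1043 several and 2169 none. All probe sets of the listed genes were given, a gene being represented by its brightest probe set, pathway genes were named where called, and the 3 probe sets most correlated with each represented gene that passed the filter were named. The genes and lists were chosen with earlier results of these data known. On simulated data for P/C against untreated cells at 24 h (3057 probe sets, 200 of them changed), 83%, 95.2% and 98.8% of log2 changes of 1.5, 2 and 3 were recovered. The false calls among all unchanged probe sets were 5 per simulated data set, as a mean over 20 simulations. The fit of all 22215 probe sets was not simulated. These percentages therefore do not give the recovery for probe sets judged only in that fit, among them all of FAS, FADD, CASP9 and CASP10.

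Arrays with the same replicate number deviated together at 8 h (correlations of 0.20 to 0.66 in 6 pairs of groups, with 2 arrays in each group). At 24 h the correlations were of mixed sign (-0.22 to 0.39). They were positive between untreated and P arrays (0.39 and 0.29) and between untreated and C arrays (0.08 and 0.38), and mostly negative in pairs with P/C. The numbers were therefore not used as a block in the main fit, which leaves the pairing at 8 h out of the 8 h tests. Alternatives were other scalings, filters, variance models and array weights, a replicate block, fits to the compared arrays alone, the mean over all probe sets of a gene, and leaving out each array. Leaving arrays out in the fit of all probe sets was chosen after the data were seen. The p53 transcript itself is not reported here. Promoter windows came from RefSeq.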

Additional observations from a re-analysis of the deposited data

How the results depend on the processing

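Single-gene log2 fold changes under the alternatives kept their direction and their side of the limits in 399 cases, gained a call in 30, lost it in 44 and turned in 2. With the mean of all probe sets of the gene, CFLAR in P/C over untreated cells at 24 h was 0.12 in place of -0.44, and CASP8 in P/C over P cells was 0.042 in place of -0.61. The probe sets that are added in that mean are dimmer, and the CASP8 call in P/C cells was lost with it (-0.45, adjusted p = 0.339). TNFRSF10B in P/C over untreated cells gained a call with it (1.65 in place of 0.83, adjusted p = 0.0311).

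The 1 probe set of the filtered fit called for P/C at 24 h became 0 with array weights, with only the arrays of the comparison, with a signal limit of 200, and without replicate 1 of both C and P/C at 24 h. It became 2 with no filter, when the TNFRSF10B _x_at probe sets were called and CASP8 was not (adjusted p = 0.0954), and 0 to 1 when single arrays were left out. For P/C against P cells and for the piroxicam main effect, both at 24 h, the count of 0 became 0 to 1 when single arrays were left out. The cause was not tested.

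In the fit of all probe sets the 2 calls for P/C at 24 h became 3 with an intensity trend, which added FAS 215719_x_at, 1 with array weights, 0 with only the arrays of the comparison and 4 without both arrays named above, and 0 to 1 when single arrays of the comparison were left out. The 2 arrays named above are the C array with the lowest and the P/C array with the higher FAS signal. Without both, 1 P/C array is left and counts depend on that choice, so they are not given for this fit. For P/C against P and against C cells the count stayed 0 in every fit of all probe sets that kept 2 P/C arrays. FAS 204780_s_at was 3.43 higher in P/C than in P cells without P/C 24 h replicate 3. Without both arrays named above, all 4 FAS probe sets were lower in the remaining P/C array than in C 24 h replicates 2 and 3. On 204781_s_at these signals were 3.59 against 5.23 and 5.86. The count of 0 for C became 5 without C 24 h replicate 1, where 1.19% of all probe sets were called, against 0.0045% in the main fit. It stayed 0 without C 24 h replicate 2 or 3. For the cisplatin main effect the count of 0 became 3 with arrays centred on their median, 3 with an intensity trend and 3 with array weights. In these fits 0.347%, 0.41% and 0.554% of all probe sets were called, against 0% in the main fit. It became 6 without C 24 h replicate 1, where 1.17% were called, and stayed 0 without any other single C or P array. For the piroxicam main effect the count of 0 became 1 with centred arrays, where 1.88% of all probe sets were called, against 1.69% in the main fit. It became 1 without P 24 h replicate 2 and 2 without C 24 h replicate 3, where 1.75% and 1.85% were called. All of these calls were TNFRSF10B probe sets and higher. The count stayed 0 without any other single C or P array. Without an untreated or a P/C array its group had 1 array, so neither main effect is counted. For piroxicam TNFRSF10B 209294_x_at was at 1.11 without untreated 24 h replicate 1, in place of 0.94. CASP8 213373_s_at went the other way, at -1.08 without P/C 24 h replicate 3, in place of -0.83.

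With a replicate block the 2 calls for P/C at 24 h in the fit of all probe sets became 1, which was CASP8, and with a replicate block within each time 0. Of all probe sets 0.27% and 0.378% were called in these 2 fits, in either direction. TNFRSF10B 209294_x_at was then at 1.89 (adjusted p = 0.0741) and 1.87 (adjusted p = 0.0899), and DFFA in P/C cells at 1.35 (adjusted p = 0.0632) and 1.21 (adjusted p = 0.0696). The block changed no other count of called probe sets of the 7 genes. Centring the arrays moved the median of the 3057 tested probe sets for P at 24 h to -0.01, in place of -0.22.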
